A study of Mus musculus with 24 samples.

Results

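Neurofilaments and stathmins are 2 families of neuronal cytoskeleton genes, and 8 of them were followed across the frontal cortex of 24 mice: the neurofilament subunits Nefl, Nefm, Nefh and Ina, and the stathmins Stmn1, Stmn2, Stmn3 and Stmn4. They were taken by name and not by a cutoff on measured values, though with earlier results of these data known. Of 52352 annotated genes, 18239 had enough reads to be tested, and all 8 members were among these. The mice were littermates from a cross of Grn+/- animals, heterozygous at the progranulin gene, with animals carrying a human TDP-43 transgene (hTDP). The 4 groups combined both changes (Grn+/- hTDP+), the transgene alone (Grn+/+ hTDP+), the Grn change alone (Grn+/- hTDP-) and neither (Grn+/+ hTDP-), each with 3 females and 3 males. Ages ran over 9.44 to 10.07 months in both hTDP+ groups, 8.19 to 10.79 months in Grn+/- hTDP- mice and 9.44 to 10.79 months in Grn+/+ hTDP- mice. RNA came from perfused, frozen and dissected frontal cortex and was selected for poly-A tails. The promoter of the transgene is not given in the sources used here, and every cell type of the tissue contributed to each library.

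Neurofilaments are the intermediate filaments of axons. The light, medium and heavy subunits (Nefl, Nefm, Nefh) and alpha-internexin (Ina) assemble into a common polymer that sets the calibre of large axons, and light chain released from damaged axons is measured in blood and cerebrospinal fluid. Stathmins bind free tubulin and regulate microtubule growth: Stmn1 is cytosolic, whereas Stmn2, Stmn3 and Stmn4 are anchored to membranes and are largely neuronal. TDP-43 is an RNA-binding protein that prefers UG-rich RNA. In human neurons its loss lets a cryptic exon into STMN2 and truncates the transcript, whereas that exon is not conserved in the mouse, and human TDP-43 has been reported to bind NEFL mRNA.

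The single TGTGTG stretch (UGUGUG in RNA) in the main transcript of 4 members is shown, since repeats of this kind are the preferred sequence of TDP-43. Each window is 30 bases of the 3′ UTR, 5′ to 3′ in the sense of the transcript, taken from the GENCODE M21 transcripts of GRCm38, with the motif in capitals.
Nefl-201: catattcaatccTGTGTGccataataaaat
Nefm-201: acataagccaaaTGTGTGgtgatgtgtcat
Stmn2-201: gatcgtgggtacTGTGTGtccatgtgaacc
Stmn4-201: tgggataaggtcTGTGTGcgtctgttcatt
The match starts at base 3340 of 3380 in Nefl-201, base 3079 of 3334 in Nefm-201, base 1297 of 2073 in Stmn2-201 and base 1244 of 1303 in Stmn4-201. The main transcripts of Nefh, Ina, Stmn1 and Stmn3 hold no TGTGTG. Only the sense strand was searched and overlapping matches were counted. Of 14700 main coding transcripts, 72.9% hold the motif at least once, and 67.1% of those in the members' length range do, so a share of 4 in 8 is no higher than elsewhere. A match of these letters is a description and not a measured binding site.

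In GRCm38, Nefl lies on chromosome 14 from 68083863 to 68089095 on the plus strand, inside the 68082590 to 68124846 span of Nefm on the minus strand. The genes share 1108 exon bases through Nefm-202, a longer 4-exon form that took 6.65% ± 1.61 of Nefm reads (SD, n = 24). The library protocol describes both strand-keeping and strandless steps, so reads in the shared bases could not be assigned to a strand with certainty. Stmn4 is on the same chromosome, from 66344296 to 66361680. Nefh lies on chromosome 11 from 4938754 to 4948064, Stmn1 on chromosome 4 from 134468320 to 134473843, Stmn2 on chromosome 3 from 8509360 to 8561606, and Stmn3 on chromosome 2 from 181306459 to 181314500. Ina, on chromosome 19 from 47014698 to 47025327, shares 456 exon bases with Nt5c2 on the other strand. Nt5c2 averaged 78.0 CPM (counts scaled to a common library size) and Ina 254 CPM.

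Libraries held 61445842 to 100859149 estimated reads, and the least covered member, Nefh, had 3290 to 6178 reads in a library. The library of Grn+/+ hTDP+ replicate 2 stood apart, with 40188 transcripts above 0 against 65994 to 69846 in the others. The targeted genes fitted their labels: Grn averaged 26.7 ± 5.29 CPM in Grn+/- hTDP+ mice, 47.9 ± 8.10 CPM in Grn+/+ hTDP+ mice, 25.9 ± 6.23 CPM in Grn+/- hTDP- mice and 51.0 ± 7.34 CPM in Grn+/+ hTDP- mice (SD, n = 6 each). Human TARDBP had 4328 to 8162 reads in hTDP+ libraries and 0 to 2 reads in hTDP- libraries. Mouse Tardbp averaged 101 ± 7.94 CPM in hTDP+ mice and 145 ± 3.87 CPM in hTDP- mice (SD, n = 12 each), a log2 change of -0.52 (SE 0.035, edgeR adjusted p = 6.86e-09). Transcripts of excitatory and inhibitory neurons, oligodendrocytes, astrocytes, microglia and vessels were present in every group, as the tissue label implies.

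Stmn1 and Stmn3 were the most abundant members. In TPM, which corrects for transcript length and so allows levels of different genes to be compared, Stmn1 averaged 1437 ± 73.1, Stmn3 937 ± 35.5, Stmn2 343 ± 15.4 and Stmn4 307 ± 24.7 over the 24 mice (SD). Among the filament genes, Nefl averaged 304 ± 28.6 TPM, Ina 157 ± 15.05 TPM, Nefm 127 ± 29.4 TPM and Nefh 30.3 ± 6.45 TPM. Stmn1 was above Stmn3, Stmn3 above Stmn2, Nefl above Ina and Nefm above Nefh in 24 of 24 mice. Stmn2 was above Stmn4 in 21 of 24 and Ina above Nefm in 22 of 24, with overlapping ranges. Stmn4 and Nefl could not be ordered, since Stmn4 was the higher in 11 of 24 mice. Nefl made up 45.7% to 52.1% of the summed TPM of the 4 filament genes in a mouse, Ina 21.5% to 30.7%, Nefm 16.2% to 25.4% and Nefh 3.40% to 5.91%.

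**Figure D1:**
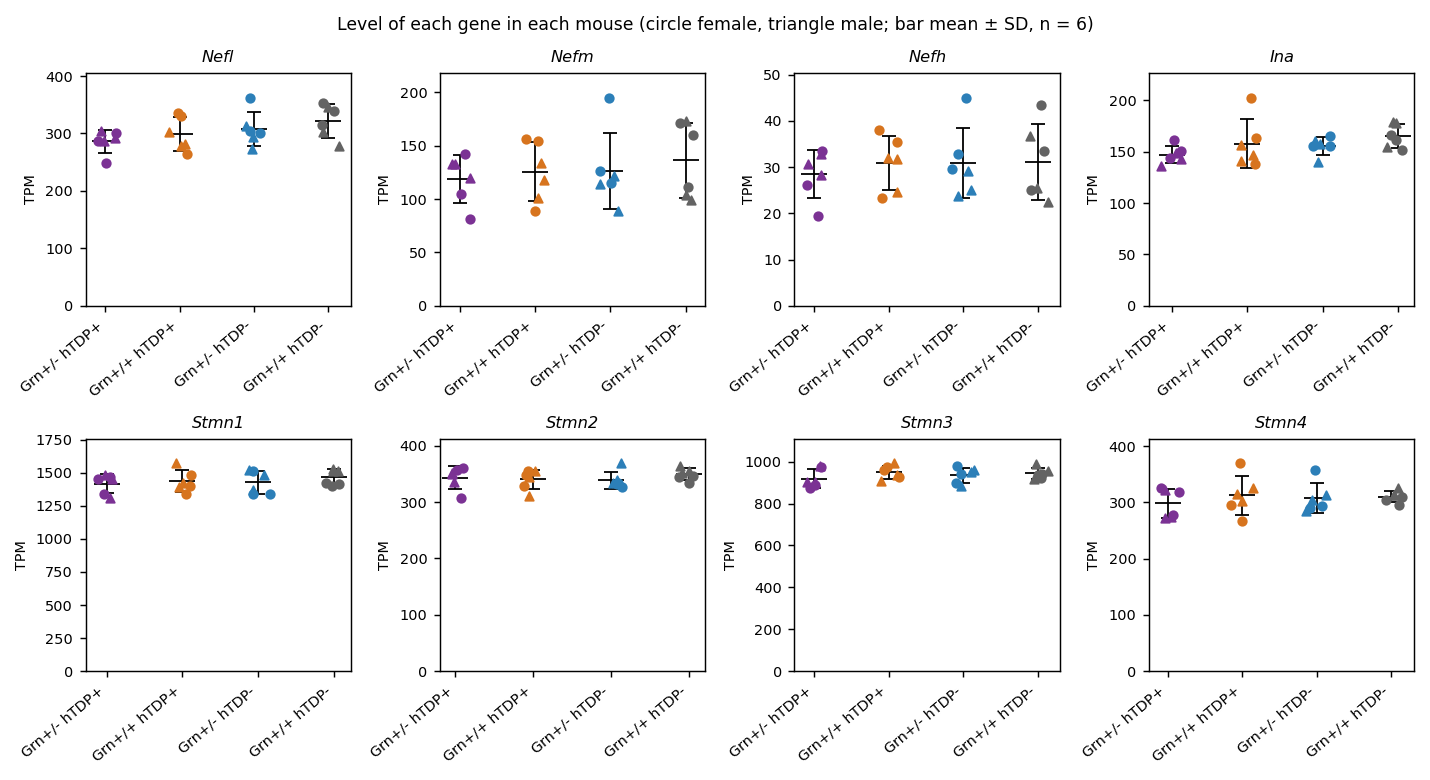
TPM of each gene (y axis, linear from 0) in each of 24 mice, by genotype on the x axis; circles are females, triangles males, and bars the mean ± SD of 6 mice. The groups overlap in every panel, and the points of Nefm (81.8 to 195 TPM) and Nefh (19.4 to 44.9 TPM) spread most relative to their means.

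Nefl, the core subunit of the polymer, was the member with the lowest p in the average transgene effect. Its lowest, median and highest levels were 248, 290 and 304 TPM in Grn+/- hTDP+ mice, 265, 292 and 336 TPM in Grn+/+ hTDP+ mice, 273, 303 and 361 TPM in Grn+/- hTDP- mice, and 278, 326 and 352 TPM in Grn+/+ hTDP- mice. The 4 ranges overlap. Averaged over both Grn genotypes, the log2 change in hTDP+ against hTDP- mice was -0.084 (SE 0.048, 95% interval -0.18 to 0.015, edgeR adjusted p = 0.678), a fold of 0.944 with an interval of 0.881 to 1.01.

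Nefm, the medium chain, carries a long phosphorylated tail. It had 81.8, 126 and 143 TPM as lowest, median and highest values in Grn+/- hTDP+ mice, 89.1, 126 and 157 TPM in Grn+/+ hTDP+ mice, 88.6, 118 and 195 TPM in Grn+/- hTDP- mice, and 99.1, 136 and 173 TPM in Grn+/+ hTDP- mice. Each group spans most of the range of all mice. Its average transgene change was -0.076 (SE 0.13, interval -0.34 to 0.19).

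Nefh, the heavy chain, has the longest tail and rises late in axon maturation. It had 19.4, 29.5 and 33.4 TPM in Grn+/- hTDP+ mice, 23.2, 31.9 and 37.9 TPM in Grn+/+ hTDP+ mice, 23.8, 29.4 and 44.9 TPM in Grn+/- hTDP- mice, and 22.5, 29.5 and 43.4 TPM in Grn+/+ hTDP- mice. The highest values were in hTDP- mice, but the medians of the groups were close. The average transgene change was -0.037 (SE 0.12, interval -0.28 to 0.21).

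Ina, the subunit enriched in central neurons, had 136, 146 and 161 TPM in Grn+/- hTDP+ mice, 138, 152 and 202 TPM in Grn+/+ hTDP+ mice, 140, 157 and 165 TPM in Grn+/- hTDP- mice, and 152, 164 and 179 TPM in Grn+/+ hTDP- mice. The groups overlap, and the single value above 200 TPM belonged to Grn+/+ hTDP+ replicate 6. The average transgene change was -0.055 (SE 0.051, interval -0.16 to 0.051).

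Among the stathmins, Stmn2, which supports axon regrowth and is the transcript lost in human TDP-43 disease, had 307, 350 and 361 TPM in Grn+/- hTDP+ mice, 311, 346 and 355 TPM in Grn+/+ hTDP+ mice, 328, 334 and 369 TPM in Grn+/- hTDP- mice, and 335, 349 and 365 TPM in Grn+/+ hTDP- mice. The groups overlap almost completely. The average transgene change was 0.0031 (SE 0.028, interval -0.055 to 0.062), a fold of 1.002 with an interval of 0.962 to 1.04.

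Stmn1, the ubiquitous family member, ranged from 1312 to 1481 TPM in Grn+/- hTDP+ mice, 1340 to 1571 TPM in Grn+/+ hTDP+ mice, 1339 to 1521 TPM in Grn+/- hTDP- mice and 1398 to 1530 TPM in Grn+/+ hTDP- mice. Stmn3 ranged from 873 to 977 TPM, 909 to 992 TPM, 882 to 978 TPM and 916 to 991 TPM in the same order of groups. Stmn4 ranged from 272 to 326 TPM, 267 to 369 TPM, 284 to 357 TPM and 295 to 325 TPM in that order. No stathmin separated any pair of groups. Their average transgene changes were 0.0022 (SE 0.034) for Stmn1, 0.015 (SE 0.027) for Stmn3 and 0.035 (SE 0.047) for Stmn4.

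In the average transgene effect, 0 of 8 members were called at an adjusted p under 0.05 by edgeR's quasi-likelihood test, against a background of 0.11% of all genes tested. None had an unadjusted p under 0.05 in edgeR, DESeq2 or limma-voom, where 7.86% of all genes did in edgeR. The median log2 change was -0.018 over the 8 members and 0.0031 over all genes, with 4 members above 0 and 4 below; the 4 below were the filament genes.

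**Figure D2:**
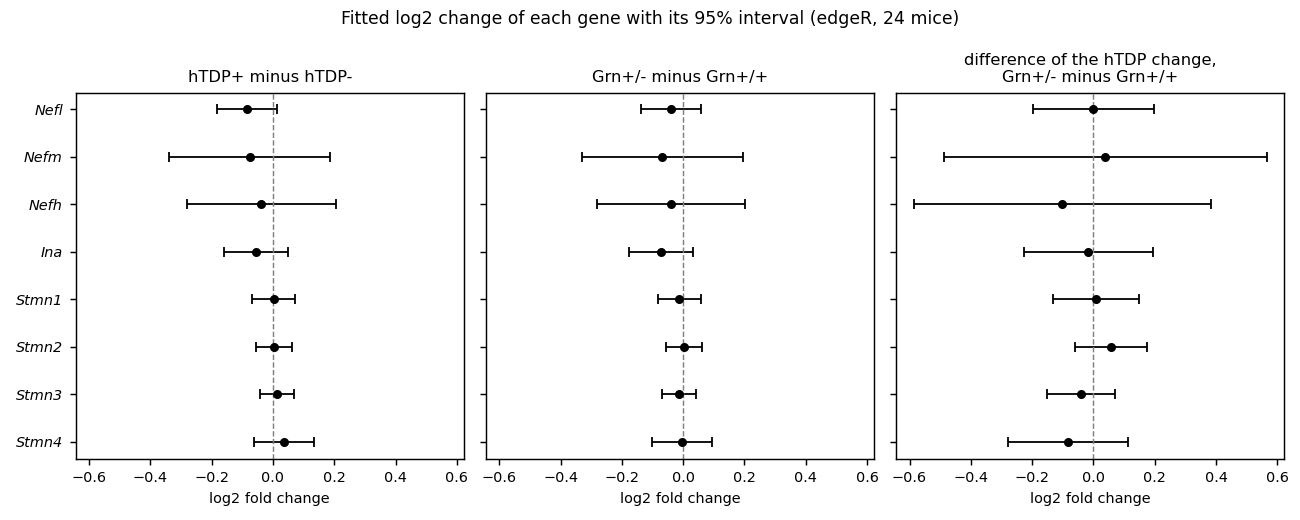
Fitted log2 change (x axis) with its 95% interval for each gene (y axis): hTDP+ minus hTDP-, Grn+/- minus Grn+/+, and the difference between the transgene changes of the Grn genotypes, over 24 mice. Every interval includes 0, from the narrow ones of Stmn2 (-0.055 to 0.062 for the transgene) to those of Nefm (-0.34 to 0.19).

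The same count, 0 of 8, was found for each remaining comparison of genotypes, again with no unadjusted p under 0.05 in edgeR, DESeq2 or limma-voom. The background share of genes called was 0.0219% for the transgene in Grn+/- mice, 0.0329% for the transgene in Grn+/+ mice, 0.0219% for the average Grn effect, 0.00548% for Grn with the transgene, 0.011% for Grn without it and 0.0768% for both changes against neither. These comparisons share mice with each other. At such low shares no call among 8 genes is what the background gives. The targeted gene Grn was itself not called for Grn with the transgene (log2 change -0.84, SE 0.16, edgeR adjusted p = 0.254). It was called for Grn without the transgene (-0.98, SE 0.17, edgeR adjusted p = 0.0440) and in the average Grn effect (edgeR adjusted p = 0.000614). A lack of calls therefore does not exclude real changes.

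For the average Grn effect (Grn+/- against Grn+/+), the log2 change was -0.073 for Ina (SE 0.051), -0.069 for Nefm (SE 0.13), -0.040 for Nefl (SE 0.048) and -0.039 for Nefh (SE 0.12). The stathmins lay between -0.013 for Stmn1 (SE 0.034) and 0.0033 for Stmn2 (SE 0.028). Nefl averaged 297 ± 26.6 TPM in Grn+/- mice and 310 ± 30.1 TPM in Grn+/+ mice (SD, n = 12 each). Ina averaged 151 ± 9.27 TPM in Grn+/- mice and 162 ± 18.2 TPM in Grn+/+ mice.

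Mice with both changes differed from mice with neither by -0.12 on the log2 scale for Nefl (SE 0.067, adjusted p = 0.592 in edgeR) and by -0.13 for Ina (SE 0.072, adjusted p = 0.611 in edgeR). Nefl averaged 287 ± 20.1 TPM in Grn+/- hTDP+ mice and 322 ± 28.9 TPM in Grn+/+ hTDP- mice, and Ina 147 ± 8.54 TPM and 165 ± 11.6 TPM in those groups (SD, n = 6 each). The intervals of both changes include 0. Nefm was at -0.14 (SE 0.18) and Nefh at -0.076 (SE 0.17), while the stathmins lay between -0.010 and 0.032.

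The interaction asks whether the transgene change differs between Grn genotypes. By edgeR 0 of 18239 genes were called (0%), 434 had an unadjusted p under 0.05, DESeq2 called 3 and limma-voom 0; none of the calls was a member. The interaction was -0.00046 for Nefl (95% interval -0.20 to 0.20) and 0.056 for Stmn2 (interval -0.061 to 0.17). For Nefm (0.039, interval -0.49 to 0.57) and Nefh (-0.10, interval -0.59 to 0.38) these intervals allow sizeable differences in either direction.

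Males were set against females in the same fit, where 0.0713% of genes were called and 0 of 8 members. Nefh averaged 28.6 ± 4.37 TPM in males and 32.1 ± 7.82 TPM in females (SD, n = 12 each), a log2 change of -0.16 (SE 0.12). Stmn1 averaged 1465 ± 76.0 TPM in males and 1409 ± 60.9 TPM in females, a log2 change of 0.061 (SE 0.034). All 4 filament genes had lower point estimates in males, between -0.16 and -0.063, none of which passed the test.

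The transgene change itself was compared between males and females. By edgeR 0 of 18239 genes were called (0%), 749 had an unadjusted p under 0.05, DESeq2 called 2 and limma-voom 0, with no member among them. Nefh had 30.03 ± 3.09 TPM in hTDP+ males and 27.1 ± 5.22 TPM in hTDP- males, and 29.2 ± 7.39 TPM in hTDP+ females and 34.9 ± 7.80 TPM in hTDP- females (SD, n = 6 each). The difference of the changes, males minus females, was 0.39 (SE 0.23, adjusted p = 0.954 in edgeR). For Nefm it was 0.33 (SE 0.25) and for Ina -0.19 (SE 0.098), also with adjusted p = 0.954 in edgeR.

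The members differed in their spread between mice. After the fitted genotype and sex terms were removed, the log2 CPM of Nefm had an SD of 0.31 between mice and that of Nefh 0.28, larger than in 97.6% and 96.9% of the 9813 genes with at least 10 CPM. Ina (SD 0.12), Nefl (0.11) and Stmn4 (0.11) lay between 66.3% and 71.2% of genes. Stmn1 (0.076), Stmn2 (0.062) and Stmn3 (0.057) were steadier than the median gene, Stmn3 exceeding 15.4% of genes. Nefm differed 2.38-fold between the highest and the lowest mouse, and Stmn3 1.14-fold.

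The filament subunits varied together. Over 24 mice, with genotype and sex removed, Nefl and Nefm had r = 0.95 and rho = 0.96, Nefm and Nefh r = 0.87 and rho = 0.88, and Nefl and Nefh r = 0.71 and rho = 0.76. Permutation p-values of r and of rho were 1e-05 for Nefl with Nefm and for Nefm with Nefh, the smallest that 100000 resamples can give, and 7e-05 and 3e-05 for Nefl with Nefh. Benjamini-Hochberg values over the 28 pairs were 9.33e-05, 9.33e-05 and 0.00049 for r. Without the 2 mice farthest from the median of the first gene of each pair, r was 0.93, 0.89 and 0.70. Nefm-201 alone, which has no exon over Nefl, gave r = 0.95 with Nefl on log2(TPM + 1), and Nefm-202 gave 0.42. Within groups of 6 mice, r of Nefl and Nefm was 0.88 in Grn+/- hTDP+, 0.96 in Grn+/+ hTDP+, 0.98 in Grn+/- hTDP- and 0.95 in Grn+/+ hTDP-. Nefl with Nefh was weaker in Grn+/- hTDP+ mice (0.15) than in the others (0.85 to 0.89), a difference that was not tested.

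Grn+/- hTDP- replicate 6, a female, had the highest Nefl (361 TPM), Nefm (195 TPM) and Nefh (44.9 TPM) of all 24 mice. Grn+/- hTDP+ replicate 4, also a female, had the lowest Nefl (248 TPM) and Nefm (81.8 TPM). Ina followed the chains less closely, with r = 0.43 and rho = 0.56 against Nefl (permutation p = 0.0352 for r and 0.00571 for rho, adjusted 0.0822 and 0.0228) and 0.40 without the 2 farthest mice.

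**Figure D3:**
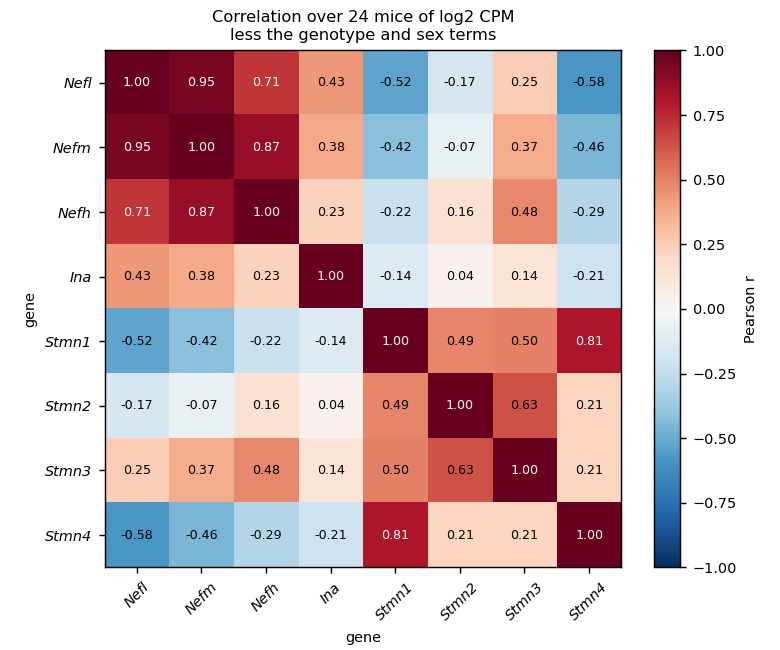
Pearson r over 24 mice for each pair of genes (x and y axes), from log2 CPM with genotype and sex terms removed; red is positive and blue negative. The block of Nefl, Nefm and Nefh holds 0.95, 0.87 and 0.71, and Stmn1 with Stmn4 0.81.

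Among stathmins, Stmn1 and Stmn4 had r = 0.81 and rho = 0.86 (permutation p = 1e-05 for both, adjusted 9.33e-05), and 0.79 without the 2 farthest mice. Stmn2 and Stmn3 had r = 0.63 and rho = 0.69 (permutation p = 0.00064 and 0.00027, adjusted 0.00358 and 0.00151), and 0.59 without the 2 farthest. Stmn1 had r = 0.50 with Stmn3 and 0.49 with Stmn2 (permutation p = 0.0129 and 0.0150, adjusted 0.0452 and 0.0466), with rho of 0.51 and 0.53, and r was 0.34 and 0.41 without the 2 farthest mice. In all, 9 of 28 pairs passed an adjusted p under 0.05, and 6 did without Grn+/+ hTDP+ replicate 2. The permutations made no allowance for the removed terms, so the p-values are somewhat too small and pairs near the threshold are uncertain.

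Pairs of a filament gene with a stathmin had either sign: r was positive in 6 of 16, up to 0.48 for Nefh with Stmn3 (rho = 0.42, adjusted permutation p = 0.0544 and 0.0867 for r and rho), and the pairs past the threshold were Nefl with Stmn4 and with Stmn1, both negative. Nefl had r = -0.58 and rho = -0.57 with Stmn4 (permutation p = 0.0029 and 0.00454, adjusted 0.0135 and 0.0212), and r = -0.52 and rho = -0.55 with Stmn1 (permutation p = 0.0092 and 0.00652, adjusted 0.0368 and 0.0228). Without the 2 farthest mice r was -0.43 and -0.42, and without Grn+/+ hTDP+ replicate 2 it was -0.48 and -0.47. That library had the highest Stmn4 of all (369 TPM) and a low Nefl (265 TPM). Libraries also differed in how strongly counts leaned toward long genes. The slope of residual log2 CPM on gene length was taken over 9813 genes. It had r = -0.67 with Stmn1, -0.52 with Stmn3, -0.47 with Stmn4 and -0.27 with Stmn2. With the filament genes r ran from 0.13 for Ina to 0.26 for Nefl. The part of this slope in the relations between members, those among stathmins included, was not tested.

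**Figure D4:**
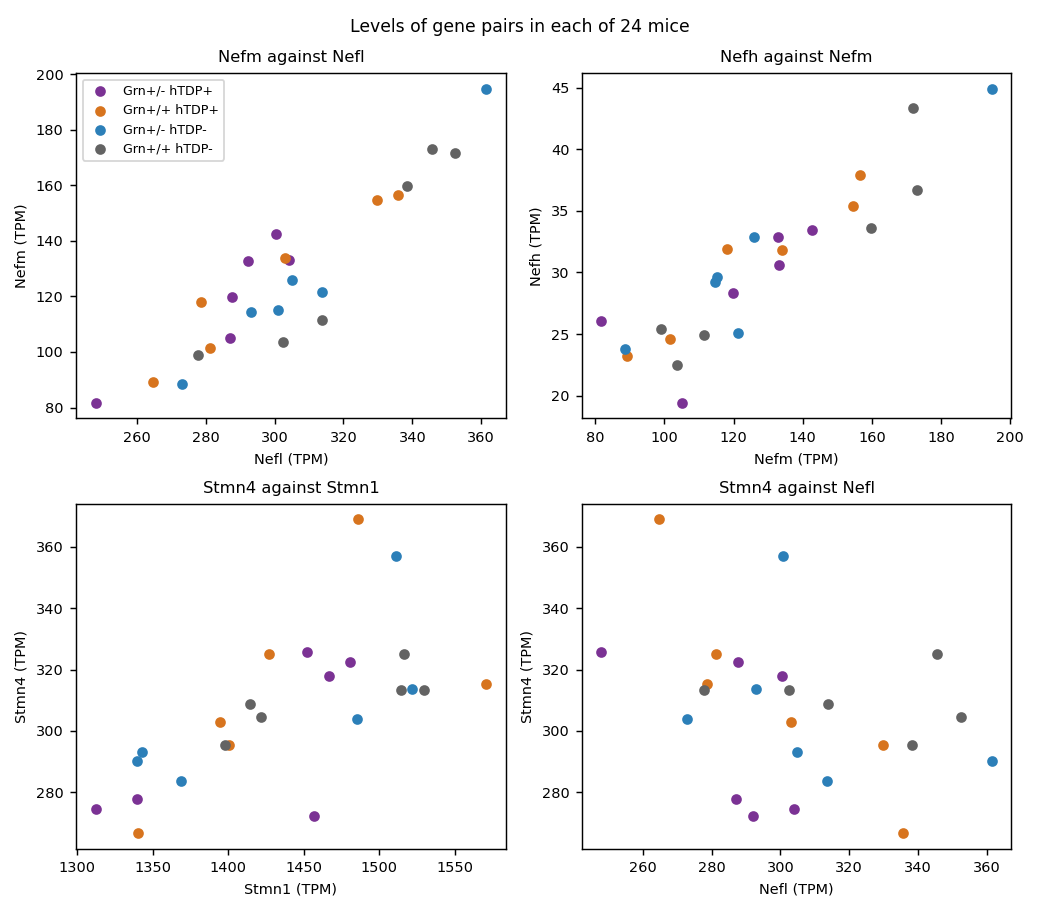
TPM of 4 pairs of genes, 1 point per mouse, coloured by genotype. Nefm climbs with Nefl and Nefh with Nefm, Stmn4 climbs with Stmn1, and Stmn4 tends to be lower where Nefl is high. For Nefl with Stmn4, r was -0.58 on log2 CPM with genotype and sex terms removed and -0.53 with no terms removed.

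Beyond the members, the genes of highest r with Nefl over 24 mice were Ppme1, a methylesterase of protein phosphatase 2A (0.93), Ahcyl1 (0.92) and Arpp19, an inhibitor of that phosphatase (0.91). For Nefm they included Sema7a, a membrane-anchored semaphorin (0.95), and Hipk4 (0.94). For Nefh they were Inppl1, a lipid phosphatase (0.96), Vamp1, a vesicle SNARE (0.96), and Lynx1, a nicotinic receptor modulator (0.96). Ina was closest to Ivns1abp (0.82), Nup210, a nuclear pore protein (0.78), and Slc31a1, a copper transporter (0.74). Stmn1 was closest to Rnasek (0.93), Dusp26 (0.89) and 2900011O08Rik (0.88), and Stmn2 to Atp6v1g2, a proton pump subunit (0.85), Mllt11 (0.83) and Pgam1, a glycolytic enzyme (0.81). Stmn3 was closest to Tagln3 (0.87), Gpx4, which removes lipid peroxides (0.87), and Bag1 (0.85), and Stmn4 to Papss1 (0.91), Gstp1 (0.89) and Shtn1 (0.88). These r are among the highest of 9813 genes and carry no test. Papss1 (94.5 CPM, median 72.4) and Gstp1 (167 CPM, median 123) were highest in Grn+/+ hTDP+ replicate 2. That library stood apart in transcripts above 0 and had the highest Stmn4. Shtn1 was highest in Grn+/- hTDP- replicate 2. How far single libraries set these r was not tested.

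Cell type markers moved with the members between mice. Fewer cells of a type and less RNA per cell cannot be told apart in such tissue. Against the mean of 10 inhibitory neuron markers, r was 0.81 for Nefh, 0.77 for Nefm and 0.67 for Nefl, with rho of 0.82, 0.80 and 0.71 (permutation p of r = 2e-05, 2e-05 and 0.00048, adjusted over 80 relations 0.0004, 0.0004 and 0.00427). Without the 2 mice farthest from the median of the marker mean, r was 0.77, 0.76 and 0.67. Ina (r = 0.49) and Stmn3 (r = 0.51) also passed for r (adjusted permutation p = 0.0438 and 0.0406) but not for rho (0.0668 and 0.0601). Not all of the 10 were examined singly. Pvalb and Syt2, both marking fast-spiking interneurons, had r of 0.92 and 0.96 with Nefh (rho = 0.88 and 0.93), and Kcnc1 had r = 0.85. Pvalb (49.8 CPM, median 25.8) and Syt2 (84.4 CPM, median 37.1) were highest in Grn+/- hTDP- replicate 6, the mouse with the highest Nefh. The part of that mouse in these r was not tested. Against 9 excitatory neuron markers Nefh had r = 0.79 and rho = 0.79 (permutation p = 1e-05 and 2e-05, adjusted 0.0004 for each), and 0.71 without the 2 farthest mice. Nefm had r = 0.68 and rho = 0.69 with this excitatory list (adjusted permutation p = 0.004 and 0.0031). Nefl had r = 0.53 and rho = 0.58 (adjusted permutation p = 0.0365 and 0.0197). Stmn3 passed for r (0.51, adjusted permutation p = 0.0424) but not for rho (0.0788). The filament chains thus moved with both neuron lists. Summed inhibitory markers spanned 1199 to 1325 CPM in Grn+/- hTDP+ mice, 1148 to 1430 CPM in Grn+/+ hTDP+ mice, 1226 to 1439 CPM in Grn+/- hTDP- mice and 1202 to 1504 CPM in Grn+/+ hTDP- mice, and none of the 10 was at 0. Their part in the filament values was not tested.

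Stmn4 moved with 11 oligodendrocyte markers (r = 0.72, rho = 0.66, permutation p = 7e-05 and 0.00056, adjusted 0.00112 and 0.00498; r = 0.66 without the 2 farthest mice) and with 8 striatal neuron markers (r = 0.82, rho = 0.77, permutation p = 1e-05 and 2e-05, adjusted 0.0004 for each; r = 0.72 without the 2 farthest). Summed oligodendrocyte markers spanned 1228 to 3094 CPM in Grn+/- hTDP+ mice, 1966 to 4209 CPM in Grn+/+ hTDP+ mice, 1326 to 5552 CPM in Grn+/- hTDP- mice and 1219 to 3002 CPM in Grn+/+ hTDP- mice. Summed striatal markers spanned 180 to 226 CPM, 169 to 206 CPM, 158 to 198 CPM and 153 to 209 CPM in that order of groups. The striatal list also had r = 0.66 with Stmn1 and -0.64 with Nefl (rho = 0.70 and -0.54, permutation p of r = 0.0004 and 0.00068, adjusted 0.004 and 0.00544), with 0.61 and -0.54 without the 2 farthest mice. The oligodendrocyte list had r = 0.54 with Stmn1 (rho = 0.56, permutation p of r = 0.00687, adjusted 0.0344), with 0.49 without the 2 farthest, and r = -0.12 with Nefl. No marker of either list was at 0, and their part in the values of Stmn4, Stmn1 and Nefl and in the relations between these genes was not tested. Stmn2 followed 12 genes taken as deep layer projection neuron markers (r = 0.68, rho = 0.75, permutation p = 0.00019 and 7e-05, adjusted 0.00253 and 0.00112). Its r was 0.61 without the 2 farthest mice. Stmn3 (r = 0.55) and Stmn1 (r = 0.51) also passed with this list (adjusted permutation p of r = 0.0267 and 0.0406). Against 9 astrocyte markers r was -0.59 for Stmn2 and -0.48 for Stmn3 (adjusted permutation p of r = 0.0204 and 0.0476).

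Transcripts were examined within genes. Nefl, Nefh, Ina and Stmn3 have 1 transcript each in the files, Stmn1-201 took 97.2% to 97.8% of Stmn1 reads, and Stmn2-201 took 98.9% to 99.7% of Stmn2 reads. Stmn2-202, a form that keeps an intron, took 0.301% to 1.13%. In Stmn4 the main form, Stmn4-201, took 75.7% ± 3.75 in Grn+/- hTDP+ mice, 73.7% ± 3.77 in Grn+/+ hTDP+ mice, 73.4% ± 4.69 in Grn+/- hTDP- mice and 72.1% ± 1.85 in Grn+/+ hTDP- mice (SD, n = 6 each). The retained-intron form Stmn4-208 took 6.76% ± 1.45, 7.30% ± 3.34, 7.37% ± 1.88 and 9.06% ± 1.56 in the same order of groups.

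Usage was testable for Nefm and Stmn4, the members with at least 2 transcripts at 5% or more of the gene. By edgeR's likelihood-ratio usage test 0 of these 2 were called in the average transgene effect (background 0.152% of 7877 genes), in the average Grn effect (0.0381%) and in the interaction (0.0127%). Neither had an unadjusted p under 0.05 in the likelihood-ratio, quasi-likelihood or limma test; the lowest by the main test was 0.403, for Stmn4 and the transgene.

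**Figure D5:**
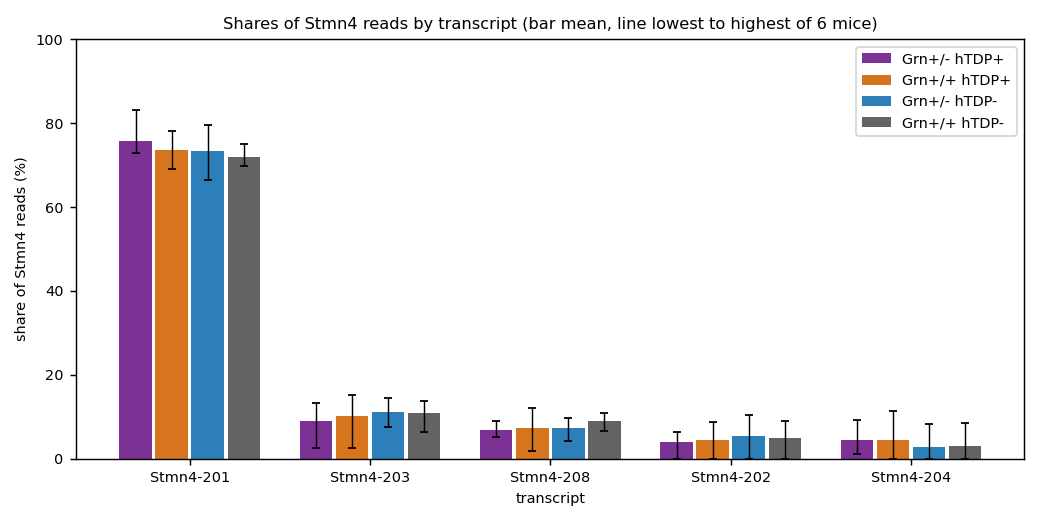
Share of Stmn4 reads (y axis, percent) held by its 5 main transcripts (x axis) in each genotype; bars are means and lines run from the lowest to the highest of 6 mice. Stmn4-201 averages 72.1% to 75.7% in every group and the lines of the groups overlap for each transcript.

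Genes around the filaments and microtubules were taken from 8 pathway lists with 114 entries, 112 of them tested. In the average transgene effect 0 of 112 passed the edgeR test in either direction, where 0.11% of all genes did, and 13 (11.6%) had an unadjusted p under 0.05, where 7.86% of all genes did. In the average Grn effect 0 of 112 passed, where 0.0219% of all genes did, and 9 (8.04%) had an unadjusted p under 0.05, where 4.93% of all genes did. For both changes against neither 0 of 112 passed, where 0.0768% of all genes did. There 22 (19.6%) had an unadjusted p under 0.05, where 9.4% of all genes did. For the transgene in Grn+/- mice 0 of 112 passed and 0 had an unadjusted p under 0.05, where 0.0219% and 2.38% of all genes did. These shares were not tested. Among 14 kinases and phosphatases that act on neurofilaments, the median log2 change in the average transgene effect was -0.029. Cdk5r1, the activator of Cdk5, was at -0.083 (SE 0.028, adjusted p = 0.493 in edgeR) and Mapk10, which is JNK3, at -0.079 (SE 0.037). Among 15 turnover and transport genes the median was -0.027, with the vesicle motor Myo5a at -0.12 (SE 0.044) and the dynein heavy chain Dync1h1 at -0.10 (SE 0.055).

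Among 9 binders of neurofilament or stathmin mRNA, Elavl4 was at -0.072 (SE 0.041, adjusted p = 0.678 in edgeR), with a list median of -0.029. Of 11 other intermediate filament genes and partners, Prph was at 0.21 (SE 0.18) and Vim at 0.14 (SE 0.11), with a median of 0.027. Of 14 tubulins, Tubg2 was at -0.051 (SE 0.032) and Tuba4a at -0.050 (SE 0.032), with a median of -0.020. Of 15 axon maintenance and degeneration genes, the ubiquitin ligase Mycbp2 was at -0.12 (SE 0.045) and the kinase Map3k13 at -0.095 (SE 0.091), with a median of -0.029.

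Of 22 axon growth and injury genes 20 were tested, with Jun at -0.18 (SE 0.085), Marcksl1 at 0.16 (SE 0.12) and a median of -0.018. Among the 8 pathway lists, the axon initial segment and node list of 14 had the median farthest from 0, at -0.12, with 13 of 14 genes below 0. The median over all genes was 0.0031, and their share below 0 was not counted. Of the 14, 2 had an unadjusted p under 0.05 in edgeR and 0 were called. A joint shift of the list was not tested. The sodium channel Scn1a was at -0.23 (SE 0.11, adjusted p = 0.649 in edgeR) and the potassium channel Kcna1 at -0.20 (SE 0.11, adjusted p = 0.671 in edgeR). Cell type lists likewise held 0 calls in both average effects. All 11 oligodendrocyte markers had estimates above 0 with the transgene (median 0.26), led by Mal at 0.32 (SE 0.23), and none had an unadjusted p under 0.05. The estimates had opposite signs in the Grn genotypes: 0 of 11 lay above 0 in Grn+/- mice (median -0.17) and 11 of 11 in Grn+/+ mice (median 0.68, 3 with an unadjusted p under 0.05 and none called). The median interaction was -0.88, with 0 of 11 called and none at an unadjusted p under 0.05. Medians of the summed markers ran the other way in Grn+/- mice, at 2237 CPM in hTDP+ and 1795 CPM in hTDP- mice. The highest Grn+/- hTDP- mouse reached 5552 CPM. Mbp was highest in Grn+/- hTDP- replicate 2, at 2157 CPM against a median of 825 CPM over all mice. How far single mice set these signs was not tested.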

How the data were processed

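Members and gene lists were chosen with earlier results of these data known. The authors deposited, per the file headers, Salmon expected counts and TPM per transcript; STAR, SAMtools and DESeq2 also appear, without roles, in the submitters' processing notes; build and annotation: not given in the sources used here. Of 149444 transcripts, 138032 were placed in 52352 genes of GENCODE M21 (GRCm38). Expected counts were summed per gene, rounded and tested with edgeR 4.0.16 (quasi-likelihood, TMM, default low-count filter, terms for genotype and sex, two-sided, 24 libraries, Benjamini-Hochberg over 18239 genes, threshold 0.05). DESeq2 1.42.0 and limma-voom (limma 3.58.1) were alternatives, as were scalings, filters, covariates, TPM and leaving out each library. Usage was tested with diffSpliceDGE on transcripts holding at least 5% of a gene. Correlations used log2 CPM (prior count 1) less genotype and sex terms, and their permutations shuffled the values without allowing for those terms. The 2 farthest mice were chosen on 1 variable only. For pairs of members this was the gene that comes first in the order Nefl, Nefm, Nefh, Ina, Stmn1 to Stmn4. For marker lists it was the marker mean. Outlying values of the other variable could therefore remain. Each library is a separate mouse, per the labels. Scripts were tested on simulated data. Named genes were the members, the targeted genes, the 3 closest genes per member (mean of at least 10 CPM), overlapping genes and, per list, called genes or else the 2 largest average transgene changes. Peptide features were not analysed here. Results on some genes that the naming rule picks are not reported here.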

Additional observations from a re-analysis of the deposited data

Results flagged for a closer look

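Of 48 sets of 6 values examined (TPM of each member and 4 transcript shares in each genotype), 4 held a value far from the other 5 mice; chance alone gives about 1 in 20. Nefl was 248 TPM in Grn+/- hTDP+ replicate 4, against 287 to 304 TPM in the rest of that group. Nefm was 195 TPM in Grn+/- hTDP- replicate 6, against 88.6 to 126 TPM. Stmn2 was 369 TPM in Grn+/- hTDP- replicate 5, against 328 to 339 TPM. The share of Stmn4-201 was 83.1% in Grn+/- hTDP+ replicate 6, against 72.9% to 76.0%.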

How the results depend on the processing

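The count of members called stayed at 0 of 8 in all 10 comparisons under every setting run for them, including each library left out, and the lowest adjusted p anywhere was 0.292. Of 2648 refitted member changes, 2638 lay within 1 SE of the value reported, 10 moved further, 197 changed sign and 25 had an unadjusted p under 0.05. On log2(TPM + 1) in limma, Nefl reached -0.10 for the average transgene effect (adjusted p = 0.554) and -0.16 for both changes against neither (adjusted p = 0.330), and Ina -0.17 (adjusted p = 0.327); Stmn4 with the transgene was -0.018 in place of 0.035. Without Grn+/+ hTDP+ replicate 6 the transgene change of Ina in Grn+/+ mice was -0.13 and its Grn change with the transgene 0.0012. Ranked by CPM, which is not per length, 2 of 8 members kept their place. Pairs past the threshold numbered 9, 6 without Grn+/+ hTDP+ replicate 2, 9 on log2(TPM + 1) and 10 with the main Nefm transcript alone, a setting chosen after seeing the data; that transcript differed by -0.081 with the transgene. Over all genes DESeq2 called 61 against 20 for the average transgene effect, 10 against 4 and 29 against 6 for the transgene in Grn+/- and Grn+/+ mice, 9 against 4 for the average Grn effect, 5 against 1 and 6 against 2 for Grn with and without the transgene, 92 against 14 for both against neither, 22 against 13 for sex, and 3 and 2 against 0 for the interaction and the transgene by sex; fits on the groups compared gave 1, 1 and 2 for the transgene in Grn+/-, in Grn+/+ and both against neither. The 4 calls for the transgene in Grn+/- mice became 2 without the low-count filter, with age as a term, or on log2(TPM + 1) in limma. The 14 for both against neither became 9 without that filter and 5 on length-scaled counts. The 1 call for Grn with the transgene was lost in edgeR without that filter (1276 genes at an unadjusted p under 0.05), on length-scaled counts (764) and on the groups compared (258), and in limma on log2(TPM + 1) (808), but not in limma-voom. The 2 for Grn without the transgene were lost in edgeR with age (807) and on the groups compared (1225). With a library left out these 4 comparisons had 2 to 4, 4 to 16, 1 to 2 and 0 to 3 calls. Usage calls were 12 for the average transgene effect (4 by quasi-likelihood, 35 by limma) and 3 for the average Grn effect (1 by quasi-likelihood, 6 without Grn+/+ hTDP+ replicate 2); for the interaction there was 1, against 2 by limma and 2 at a minimum share of 1%. The causes were not tested. No paired analysis was possible because the labels give the groups no shared replicate numbers. They do give ages, and a fit with sex and each of 6 ages as a block, chosen after seeing the data, called 0 of 8 members in the 9 comparisons it was run for; only 2 of 6 Grn+/- hTDP- mice share an age with another group. Over all genes it called 2 against 20 for the average transgene effect, 0 against 4 for the transgene in Grn+/- mice (207 genes at an unadjusted p under 0.05), 1 against 4 for the average Grn effect, 0 against 1 and 0 against 2 for Grn with and without the transgene (571 and 445), and 3 against 14 for both against neither. In it Stmn1 was at 0.054 and Stmn4 at 0.11 for Grn without the transgene. Depth was not limiting for the members; the spread between mice limits Nefm and Nefh.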

Other observations

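Several genes ran opposite to the members between mice; they were chosen after their values were seen and carry no test. Fstl5 had r = -0.94 with Nefm over 24 mice, the sodium channel beta subunit Scn3b -0.94 with Nefh, and the zinc transporter Slc39a6 -0.92 with Nefl. Scn3b was at 86.7 CPM in Grn+/- hTDP- replicate 6, the mouse with the most filament RNA, and at 141 CPM in Grn+/- hTDP+ replicate 4. Igfbp2 had r = -0.89 with Stmn1, and Ssrp1, a histone chaperone, -0.86 with Stmn3. Fezf2, a deep layer transcription factor, had r = -0.67 with Nefl and 0.49 with Stmn1. The mean of the 12 genes taken as deep layer markers, Fezf2 among them, had r = -0.076 with Nefl and 0.51 with Stmn1.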
